A study of Mus musculus with 6 samples.

Results

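Aminoacyl-tRNA synthetases are the enzymes that attach each amino acid to its tRNA, and the eEF1 complex then delivers the charged tRNA to the ribosome. Mammalian cells hold a cytosolic set and a mitochondrial set, both encoded in the nucleus, and several cytosolic enzymes sit together in the multisynthetase complex. Transcripts of many cytosolic synthetases are known targets of ATF4, the transcription factor of the amino acid and stress responses. The genes were taken from the table of all genes by symbol, as protein-coding rows named for a cytosolic or a mitochondrial synthetase or for the scaffold proteins Aimp1 and Aimp2. The symbols gave 40 genes of 54532 rows, of which 21 were cytosolic, 17 mitochondrial and 2 scaffolds. Every cytosolic gene except Tarsl2, a second cytosolic threonyl-tRNA synthetase, is the main enzyme or subunit for its amino acid, and Eprs joins the enzymes for glutamate and proline in 1 protein. The symbols gave no separate mitochondrial gene for glycine, lysine or glutamine. Gars, Kars and Qars were counted as cytosolic, and whether their transcripts also serve mitochondria was not examined.

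The RNA came from germ cells in early meiotic prophase, the leptotene/zygotene (L/Z) spermatocytes, which were collected by flow cytometry from testes of mice aged 12 days postpartum. The comparison had 3 control and 3 Eef1g-cKO libraries. Eef1g encodes the gamma subunit of eEF1. The Eef1g-cKO males carried a floxed Eef1g allele and Stra8-GFPCre, which drives Cre in germ cells from the onset of differentiation, on a C57BL/6J background, and the controls were littermates whose genotype is labelled wild type. The labels do not say whether the libraries of a group came from separate animals, so that p-values measure the spread between these libraries.

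Libraries held 763133 to 2617648 reads in genes, the lowest in Eef1g-cKO 3, and 8513 genes passed the count filter. Eef1g itself stood at 222, 226 and 212 CPM (reads scaled to a library of 1e+06 reads) in the 3 controls and at 139, 151 and 119 CPM in the Eef1g-cKO libraries. Its 2 ranges did not overlap, and its log2 fold change (Eef1g-cKO over control) was -0.68 with a standard error (SE) of 0.20 (edgeR, adjusted p = 0.029). That call was lost in 8 of 18 alternative fits, among them each fit without 1 control and that without Eef1g-cKO 1. The summed CPM of 10 leptotene/zygotene markers ran from 9858 to 10966 in the controls and from 19943 to 25344 in the Eef1g-cKO libraries. Sycp1, at a mean of 5101 and 10487 CPM, was the largest part of that sum. Of the 10 markers 6 rose, Stra8 fell by 0.69 on the log2 scale (edgeR adjusted p = 0.027), and 3 did not pass, Spo11 and Meiob (log2 fold changes of 0.07 and 0.06) among them. The summed CPM of 8 spermatogonial markers ran from 668 to 789 and from 226 to 264, that of 8 Sertoli markers from 81.7 to 281 and from 1.54 to 45.3, and that of 7 peritubular and stromal markers from 292 to 408 and from 32.4 to 102. Of the remaining lists, 8 markers of pachytene and later cells ran from 24.1 to 41.4 CPM and from 3.09 to 16.1 CPM, with Acrv1 and Acr at 0. Among them Piwil1 fell from 34, 22 and 30 reads to 0, 1 and 0 reads (log2 fold change -5.94, edgeR adjusted p = 0.0014). The sum of 5 Leydig markers ran from 8.40 to 10.7 CPM and from 1.57 to 6.47 CPM, with Cyp17a1 and Hsd3b1 at 0. The 7 blood and macrophage markers summed to at most 77.9 CPM, with Cd68 and Csf1r at 0. The leptotene/zygotene, spermatogonial, Sertoli, peritubular, pachytene and, at a low level, Leydig sums thus differed by genotype beside every result given here. Their part in the results was not tested. Only the blood and macrophage sums overlapped. In bulk RNA, fewer cells of a type and less RNA per cell cannot be told apart.

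The promoters of 5 cytosolic genes are shown because they hold the letters that ATF4 dimers are known to bind, the C/EBP-ATF composite element. The search used TGATGNAA on both strands, with no requirement on the bases around it, in RefSeq windows from 250 bases before to 50 bases after each annotated start (GRCm38.p6). Windows were given for 29 of the 40 genes, and 1304 of all 32851 windows held the element, a share of 3.97%. The 5 sequences read 5′ to 3′ on the gene's own strand, with the element in capitals.
Iars, chr13:49681880-49682179, plus strand: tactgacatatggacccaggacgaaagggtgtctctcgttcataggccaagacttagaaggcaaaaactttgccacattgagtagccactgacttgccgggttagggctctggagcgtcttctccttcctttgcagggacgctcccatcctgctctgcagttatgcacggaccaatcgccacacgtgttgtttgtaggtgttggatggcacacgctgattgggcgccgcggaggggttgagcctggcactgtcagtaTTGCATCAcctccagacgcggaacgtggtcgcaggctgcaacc
Tars, chr15:11399609-11399908, minus strand: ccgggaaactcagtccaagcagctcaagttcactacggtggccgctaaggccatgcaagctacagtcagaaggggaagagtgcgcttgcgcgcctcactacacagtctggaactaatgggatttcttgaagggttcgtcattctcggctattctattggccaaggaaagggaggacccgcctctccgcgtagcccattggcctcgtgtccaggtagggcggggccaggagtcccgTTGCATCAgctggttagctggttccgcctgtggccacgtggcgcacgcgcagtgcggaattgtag
Aars, chr8:111033592-111033891, plus strand: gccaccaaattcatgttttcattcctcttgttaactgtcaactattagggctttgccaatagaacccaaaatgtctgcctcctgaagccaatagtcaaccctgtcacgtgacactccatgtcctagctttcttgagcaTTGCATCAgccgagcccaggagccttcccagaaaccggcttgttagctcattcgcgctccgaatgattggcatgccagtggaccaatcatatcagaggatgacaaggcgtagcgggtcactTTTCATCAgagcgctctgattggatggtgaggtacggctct
Gars, chr6:55037751-55038050, plus strand: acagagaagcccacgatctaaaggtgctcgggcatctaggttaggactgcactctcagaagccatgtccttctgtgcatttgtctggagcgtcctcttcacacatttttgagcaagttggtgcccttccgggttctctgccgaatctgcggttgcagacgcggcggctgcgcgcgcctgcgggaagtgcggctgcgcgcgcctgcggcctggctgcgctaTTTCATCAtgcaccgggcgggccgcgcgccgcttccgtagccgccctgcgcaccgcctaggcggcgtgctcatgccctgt
Yars, chr4:129189653-129189952, plus strand: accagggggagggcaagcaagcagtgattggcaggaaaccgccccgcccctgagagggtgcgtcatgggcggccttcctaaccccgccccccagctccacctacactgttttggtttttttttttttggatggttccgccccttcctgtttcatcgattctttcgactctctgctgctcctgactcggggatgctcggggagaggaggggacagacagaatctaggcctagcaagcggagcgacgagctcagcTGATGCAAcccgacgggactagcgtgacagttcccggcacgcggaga

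The first base of the element, read along the gene, lay 8 bases after the start in Iars, 15 before it in Tars, 30 before it in Gars and on base 4 after it in Yars. Aars held the element at 112 bases before and at base 10 after its start. In Iars, Tars, Aars and Gars the element was on the strand opposite to the gene. All 5 genes were cytosolic, out of 13 cytosolic genes with a window, and none of the 14 mitochondrial genes with a window held it. Among cytosolic genes with a window it was in 2 of the 3 whose transcripts rose, Iars and Tars, and in 3 of the 10 that did not pass the test. Cars, Nars and Lars also rose but had no window, so that their promoters were not searched. A match describes letters only, and no binding was measured.

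Cytosolic synthetase transcripts did not move as a block. Of the 21 cytosolic genes, 6 rose in Eef1g-cKO L/Z spermatocytes (Cars, Nars, Iars, Lars, Tars and Farsb), 15 did not pass the test and 0 fell (edgeR quasi-likelihood test, adjusted over all 8513 genes). Among all tested genes 7.80% rose and 6.01% fell, 13.8% in all. The split of 664 higher to 512 lower calls was 463 to 639 with upper-quartile scaling and 333 to 643 with library totals alone. Of the 6 that rose, 3 (Cars, Nars and Iars) were also past a log2 fold change of 1, against 3.42% of all genes upwards and 4.96% downwards. The median log2 fold change of the 21 genes was 0.23, beside -0.05 over all tested genes, and single genes ran from -2.25 for Vars to 1.84 for Cars. The median stayed above 0 in all 18 alternative fits but was 0.016 with library totals alone, 0.10 with upper-quartile scaling, 0.56 with a minimum of 10 reads in each library and 0.39 without control 1. Fewer genes entered the median with the minimum of 10 reads. At an unadjusted p under 0.05, 7 cytosolic genes were higher and 3 lower (Vars, Kars and Hars). DESeq2 also gave 6 higher and 0 lower, while limma-voom called Hars and Vars lower.

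**Figure D1:**
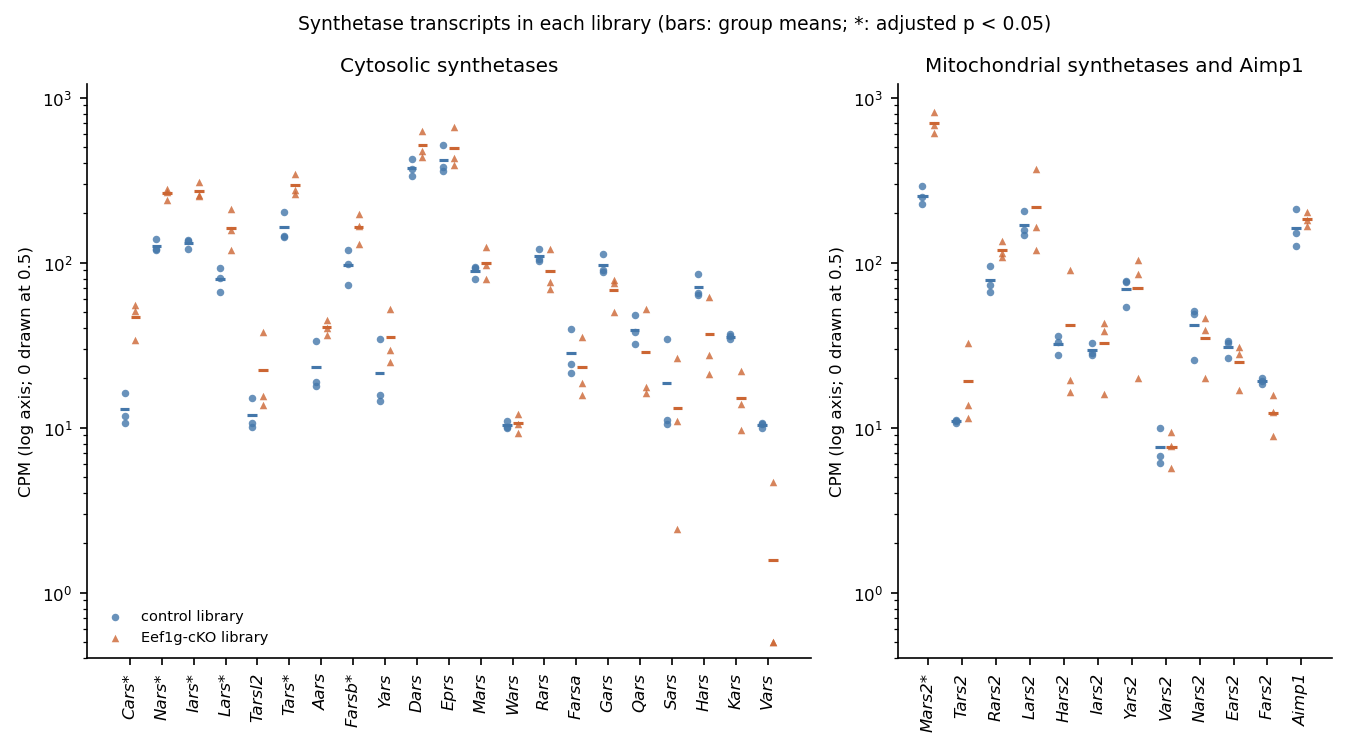
CPM of tested synthetase genes in each library on a log axis, with circles for the 3 control and triangles for the 3 Eef1g-cKO libraries, bars for group means, an asterisk for an adjusted p under 0.05 (edgeR) and 0 drawn at the foot of the axis. Genes are ordered by log2 fold change within the cytosolic and the mitochondrial set, with Aimp1 last, and the Eef1g-cKO libraries of Cars, Nars, Iars and Mars2 stand clear of the controls.

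Cysteinyl-tRNA synthetase had the steepest rise. Cars (ENSMUSG00000010755) was counted at 14, 31 and 21 reads in the controls and at 42, 130 and 36 reads in the Eef1g-cKO libraries. In CPM this was 10.7, 16.3 and 11.8 against 34.0, 51.0 and 55.6, so that every Eef1g-cKO library lay above every control. The change was 3.58-fold (95% interval 1.88 to 6.80, log2 SE 0.44, edgeR adjusted p = 0.0091), and the call held in all 18 alternative fits. Its low counts give it the widest interval of the 7 synthetase genes that rose.

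Asparaginyl- and isoleucyl-tRNA synthetase rose by near-equal amounts. Nars (ENSMUSG00000024587) stood at 138, 121 and 119 CPM in the controls and at 241, 280 and 269 CPM in the Eef1g-cKO libraries. Its change was 2.09-fold (95% interval 1.57 to 2.78, edgeR adjusted p = 0.0014). Iars (ENSMUSG00000037851), whose enzyme is part of the multisynthetase complex, stood at 134, 137 and 120 CPM and at 256, 252 and 306 CPM. Its change was 2.07-fold (95% interval 1.56 to 2.75, edgeR adjusted p = 0.0015). For both genes the lowest Eef1g-cKO library lay above the highest control, and both calls held in all 18 alternative fits.

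Leucyl- and threonyl-tRNA synthetase followed with smaller margins between groups. Lars (ENSMUSG00000024493), also a member of the complex, stood at 66.4, 92.9 and 80.6 CPM in the controls and at 158, 118 and 210 CPM in the Eef1g-cKO libraries. The rise was 2.00-fold (95% interval 1.37 to 2.92, edgeR adjusted p = 0.015). Its groups did not overlap, but its call was lost when scaling used library totals alone (adjusted p = 0.054) and without control 1 (0.080) or control 3 (0.064). Tars (ENSMUSG00000022241) stood at 202, 143 and 146 CPM and at 275, 261 and 344 CPM, again with no overlap. The rise was 1.79-fold (95% interval 1.33 to 2.41, edgeR adjusted p = 0.0098), and it was lost without control 2 or control 3 (adjusted p = 0.063 each).

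Phenylalanyl-tRNA synthetase is built of an alpha subunit, encoded by Farsa, and a beta subunit, encoded by Farsb. Farsb (ENSMUSG00000026245) stood at 98.5, 73.0 and 119 CPM in the controls and at 129, 167 and 198 CPM in the Eef1g-cKO libraries, a rise of 1.70-fold (95% interval 1.18 to 2.44, edgeR adjusted p = 0.0496). The highest control lay just under the lowest Eef1g-cKO library, and the call was lost in 13 of 18 alternative fits, among them those without any 1 control and without Eef1g-cKO 2 or 3. Farsa stood at 21.4, 24.1 and 39.7 CPM and at 18.6, 15.7 and 35.5 CPM, with overlapping groups and a log2 fold change of -0.35 (SE 0.49). Whether the 2 subunits differed in their response was not tested. Sgpp2, on the opposite strand, overlaps Farsb by 2315 bases, and the counting is not stated to use strand. Sgpp2 itself had 9, 6 and 3 reads in the controls and 0 in each Eef1g-cKO library. The part of the overlap in the Farsb counts was not tested.

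Without control 3, only Cars, Nars and Iars of the cytosolic genes still passed the test, a count of 3 in place of 6.

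**Figure D2:**
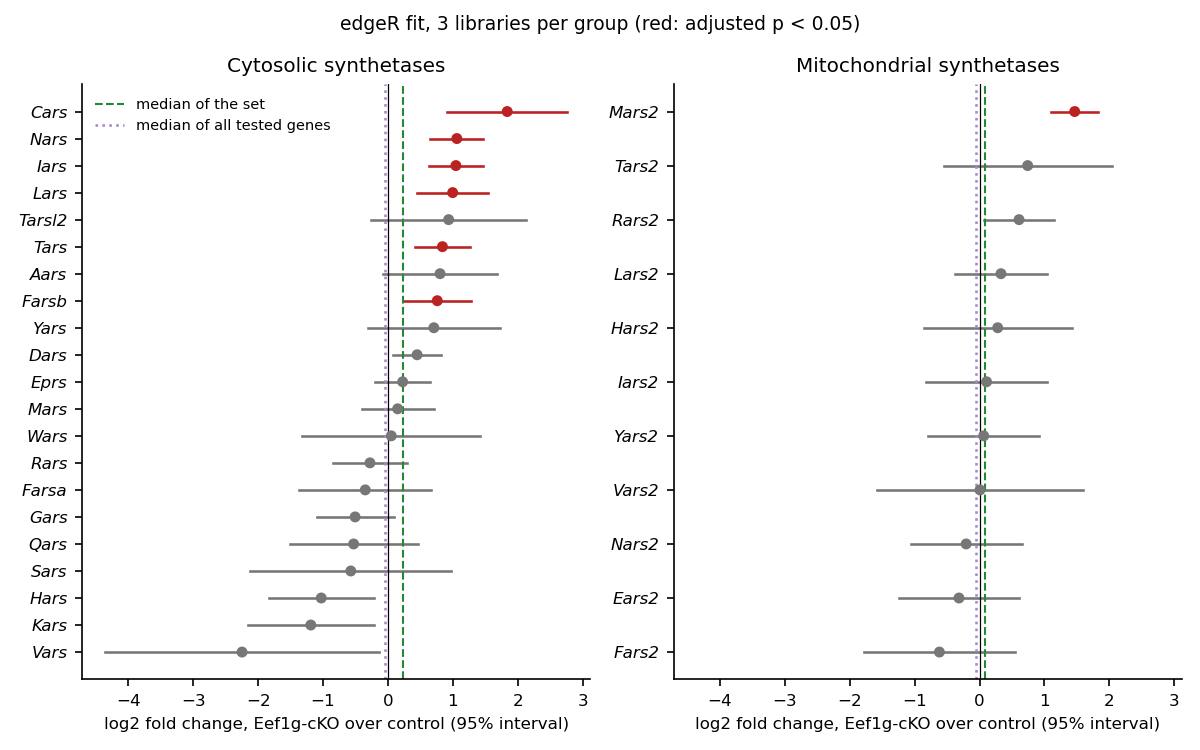
log2 fold change (Eef1g-cKO over control) with its 95% interval for cytosolic and mitochondrial genes tested by edgeR, red where the adjusted p was under 0.05. Dashed lines mark the median of each set (0.23 and 0.087) and dotted lines that of all tested genes (-0.05), and Mars2 is the mitochondrial gene in red.

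The multisynthetase complex holds 8 of the cytosolic enzymes (Eprs, Iars, Lars, Mars, Qars, Rars, Kars and Dars). Of these genes, 2 rose (Iars and Lars, 25%) and the median log2 fold change was 0.19. Of the 13 genes of cytosolic enzymes outside this complex 4 rose (30.8%) and the median was 0.71, where 7.80% of all tested genes rose. The difference between the 2 sets was not tested. Dars, for aspartate, stood at 336, 370 and 424 CPM and at 625, 478 and 439 CPM, and its groups did not overlap. Its 1.37-fold difference (95% interval 1.06 to 1.76) had an adjusted p of 0.097 by edgeR and of 0.018 by limma-voom, and of 0.017 by edgeR without Eef1g-cKO 3. Eprs and Mars had log2 fold changes of 0.23 (SE 0.20) and 0.15 (SE 0.26), both with overlapping groups, and those of Rars (-0.28, SE 0.27) and Qars (-0.53, SE 0.47) were below 0.

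Kars, the lysyl enzyme of the complex, lay in the opposite direction to Iars and Lars. It stood at 34.3, 35.7 and 36.9 CPM in the controls and at 9.70, 22.0 and 13.9 CPM in the Eef1g-cKO libraries, without overlap. Its log2 fold change was -1.19 (SE 0.47, edgeR adjusted p = 0.0998), and after thinning to equal depth it passed (-1.76, adjusted p = 0.026). Scaffold Aimp1, which holds the complex together with Aimp2 and Eef1e1, stood at 211, 152 and 126 CPM and at 167, 182 and 204 CPM, with overlapping groups and a log2 fold change of 0.18 (SE 0.22). Aimp2 had 6, 5 and 6 reads in the controls and 0, 1 and 0 reads in the Eef1g-cKO libraries, which was too few for the test. Eef1e1, the third scaffold (AIMP3), averaged 242 CPM in both groups, with an SD of 11.6 and 118 CPM and a log2 fold change of 0.02 (SE 0.26).

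Among cytosolic enzymes outside the multisynthetase complex, the valyl enzyme gene Vars had the lowest ratio. It was counted at 13, 20 and 19 reads in the controls (9.92, 10.5 and 10.6 CPM) and at 0, 12 and 0 reads in the Eef1g-cKO libraries. Its log2 fold change of -2.25 (SE 1.01) had an edgeR adjusted p of 0.15, and without Eef1g-cKO 2, the library with its 12 reads, the call passed (adjusted p = 0.029). Hars, for histidine, stood at 85.5, 65.6 and 63.3 CPM and at 21.0, 27.4 and 61.8 CPM, so that Eef1g-cKO 3 lay just under the controls. Its log2 fold change was -1.03 (SE 0.39, edgeR adjusted p = 0.086), and it passed as lower in 4 of 18 alternative fits (limma-voom, scaling by totals, a minimum of 10 reads in each library, and without Eef1g-cKO 3). Hars and Hars2 overlap head to head by 198 bases.

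The other cytosolic genes outside the multisynthetase complex did not pass the test. Aars (alanine) had 1.75-fold the control level (95% interval 0.95 to 3.20) with no overlap between groups, Yars (tyrosine) 1.63-fold (0.81 to 3.31) and Tarsl2 1.91-fold (0.84 to 4.37). Gars (glycine) lay below the controls in all 3 Eef1g-cKO libraries, at 0.70-fold (0.47 to 1.06), and its promoter is among those printed above. Sars (serine) and Wars (tryptophan) had log2 fold changes of -0.57 (SE 0.74) and 0.05 (SE 0.65). In all, the groups did not overlap for 8 cytosolic genes with Eef1g-cKO above and for 4 with Eef1g-cKO below, where 16.4% and 18.1% of all tested genes did the same.

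Of the 17 mitochondrial genes, 12 could be tested, 1 rose (Mars2) and 0 fell, so that the share that rose, 8.33%, was near the 7.80% of all tested genes. No mitochondrial gene was lower at an unadjusted p under 0.05 by edgeR, and DESeq2 and limma-voom called 0 lower as well. The median log2 fold change of the 12 genes was 0.087, but -0.038 with upper-quartile scaling and -0.095 with library totals alone, and the lowest value was -0.62 for Fars2. For 3 of them (Mars2, Rars2 and Tars2) the Eef1g-cKO libraries lay above all controls, and for 1 (Fars2) below, where 16.4% and 18.1% of all tested genes did so. The cytosolic minus the mitochondrial median was 0.14, but -0.058 without control 2, -0.20 without Eef1g-cKO 2 and 0.53 with a minimum of 10 reads in each library, so that neither its direction nor its size held. With that minimum, 27 genes of both sets together entered the medians in place of 33.

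Mars2, the mitochondrial methionyl-tRNA synthetase, showed the clearest change of all synthetase genes. Mars2 (ENSMUSG00000046994) was counted at 295, 476 and 518 reads in the controls and at 1015, 1559 and 444 reads in the Eef1g-cKO libraries. In CPM this was 225, 250 and 290 against 821, 611 and 686, and the lowest Eef1g-cKO library was above the highest control. The change was 2.76-fold (95% interval 2.15 to 3.55, log2 SE 0.17, edgeR adjusted p = 2.3e-05), and it passed in all 18 alternative fits with an adjusted p of at most 0.0006. Its cytosolic counterpart Mars stood at 93.1, 94.5 and 80.0 CPM and at 79.2, 96.8 and 124 CPM, and its groups overlapped. Mars2 is annotated as a single exon of 11294 bases on the plus strand of chromosome 1 (55237177 to 55248470, GRCm38), of which 1758 are coding. The gene Boll, for a germ-cell RNA-binding protein, ends 187 bases beyond it on the opposite strand. Boll, named here after its values were seen, also rose, from 85.8 ± 3.89 to 185 ± 38.3 CPM (SD, n = 3 each; log2 fold change 1.12, edgeR adjusted p = 0.0034).

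The other mitochondrial genes had wide intervals. Rars2 (arginine) stood at 1.53-fold the control level (95% interval 1.05 to 2.22, edgeR adjusted p = 0.13) and Tars2 (threonine) at 1.67-fold (0.68 to 4.10). Tars2 was at 10.7, 11.0 and 11.2 CPM in the controls and at 13.7, 11.4 and 32.4 CPM in the Eef1g-cKO libraries, so that its mean rests on Eef1g-cKO 3. Lars2 (leucine) stood at 205, 157 and 147 CPM and at 120, 163 and 369 CPM, and Hars2 (histidine) at 27.5, 33.1 and 35.8 CPM and at 19.4, 16.5 and 89.6 CPM. In Lars2, Hars2 and Tars2 the highest value was that of Eef1g-cKO 3, the library with the fewest reads and with the highest share of reads in rRNA genes, 9.23%. The part of that library in the values of Lars2, Hars2 and Tars2 was not tested. Among the genes that rose, it also held the highest value for Cars, Iars, Lars, Tars and Farsb, but not for Nars or Mars2. Without it, Farsb lost its call and the others kept theirs.

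The remaining partners of the genes that rose did not pass the test. Iars2 stood at 28.2, 32.5 and 27.4 CPM and at 42.9, 16.1 and 38.6 CPM, and Nars2 at 51.1, 25.7 and 48.7 CPM and at 38.8, 46.3 and 20.1 CPM, with overlap in both. Fars2, a single-chain phenylalanyl enzyme, stood at 19.1, 19.9 and 18.5 CPM and at 8.90, 15.7 and 12.4 CPM, with no overlap and a log2 fold change of -0.62 (SE 0.55). Vars2 and Yars2 had log2 fold changes of 0.007 and 0.065, and those of Ears2 and Nars2 were -0.32 and -0.21.

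A further 5 mitochondrial genes had too few reads for the test. Pars2 had 7, 2 and 4 reads in the controls and 0 in each Eef1g-cKO library, and Cars2, the partner of Cars, had 4, 0 and 7 reads against 1, 3 and 0. Aars2 had 1, 0 and 2 reads against 2, 10 and 0, Sars2 0, 1 and 4 against 1, 2 and 2, and Wars2 9, 4 and 0 against 0, 1 and 5. A floor of 3 reads corresponds to 1.18 to 4.63 CPM in these libraries, so that differences at this level were not detectable. Amplified reads without molecular identifiers are not independent molecules, and such floors cover counting error only.

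Enzymes for the same amino acid were then compared within each library, as the log2 ratio of reads of the cytosolic to the mitochondrial gene, which needs no scaling between libraries. A ratio in every library was available for 13 gene pairs. The Iars to Iars2 ratio was 2.25, 2.07 and 2.13 in the controls and 2.58, 3.97 and 2.99 in the Eef1g-cKO libraries. Nars to Nars2 moved from 1.65 ± 0.51 to 2.99 ± 0.65 and Farsb to Fars2 from 2.31 ± 0.41 to 3.76 ± 0.31 (mean ± SD, n = 3 each), and in these 3 pairs the groups did not overlap. In another 3 pairs the ratio was lower in every Eef1g-cKO library than in any control. Mars to Mars2 moved from -1.51 ± 0.31 to -2.83 ± 0.48, Rars to Rars2 from 0.50 ± 0.15 to -0.46 ± 0.54 and Hars to Hars2 from 1.15 ± 0.43 to 0.11 ± 0.64. In the exact permutation test, 2-sided, each of these 6 pairs reached p = 0.1, the smallest that 3 against 3 libraries allow, and the adjusted p over the 13 pairs was 0.217. As single genes, 16.4% of all tested genes lay above the controls without overlap and 18.1% below. No such share was taken for ratios of other gene pairs.

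For 7 pairs the groups overlapped, Lars to Lars2, Tars to Tars2 and Farsa to Fars2 among them. Lars to Lars2 was -1.62, -0.76 and -0.86 in the controls and 0.41, -0.47 and -0.81 in the Eef1g-cKO libraries. Tars to Tars2 was 3.88 ± 0.31 and 4.08 ± 0.59. Farsa to Fars2, with the other subunit of the cytosolic phenylalanyl enzyme, was 0.51 ± 0.51 and 0.86 ± 0.78.

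**Figure D3:**
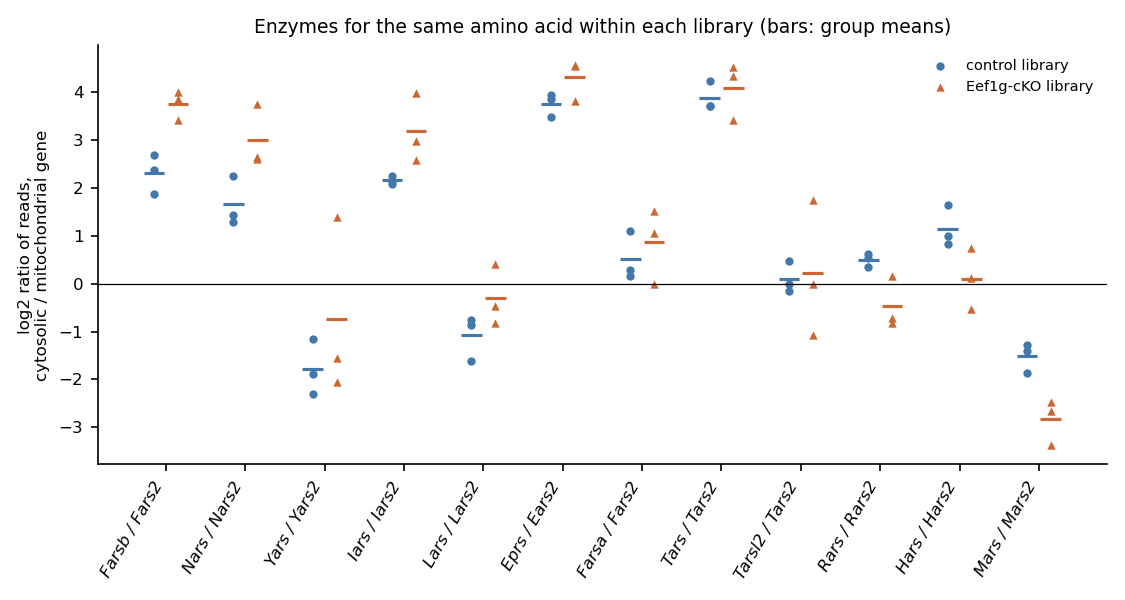
log2 ratio of reads of the cytosolic to the mitochondrial gene for the same amino acid in each library, with circles for control, triangles for Eef1g-cKO and bars for group means. The pairs are ordered by the difference of the means, and the groups separate upwards in Farsb to Fars2, Nars to Nars2 and Iars to Iars2 and downwards in Rars to Rars2, Hars to Hars2 and Mars to Mars2.

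Summed over genes, the cytosolic set held 2133, 1864 and 1920 CPM in the controls and 2508, 2515 and 3058 CPM in the Eef1g-cKO libraries. The mitochondrial set held 796, 794 and 774 CPM and 1383, 1150 and 1449 CPM. Both sums were higher in every Eef1g-cKO library, at 1.37 times the control mean for the cytosolic set and 1.68 times for the mitochondrial set. Mars2 made up 32.4% ± 4.65 of the mitochondrial sum in the controls and 53.3% ± 6.01 in the Eef1g-cKO libraries (SD, n = 3 each). Without Mars2, a sum taken after its values were seen, the mitochondrial set held 533 ± 44.4 and 621 ± 123 CPM and its groups overlapped. The cytosolic to mitochondrial ratio of the sums was 2.50 ± 0.17 in the controls and 2.04 ± 0.20 in the Eef1g-cKO libraries. This direction rested on Mars2: without it the ratio was 3.74, 3.43 and 3.97 in the controls and 4.46, 4.67 and 4.01 in the Eef1g-cKO libraries.

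**Figure D4:**
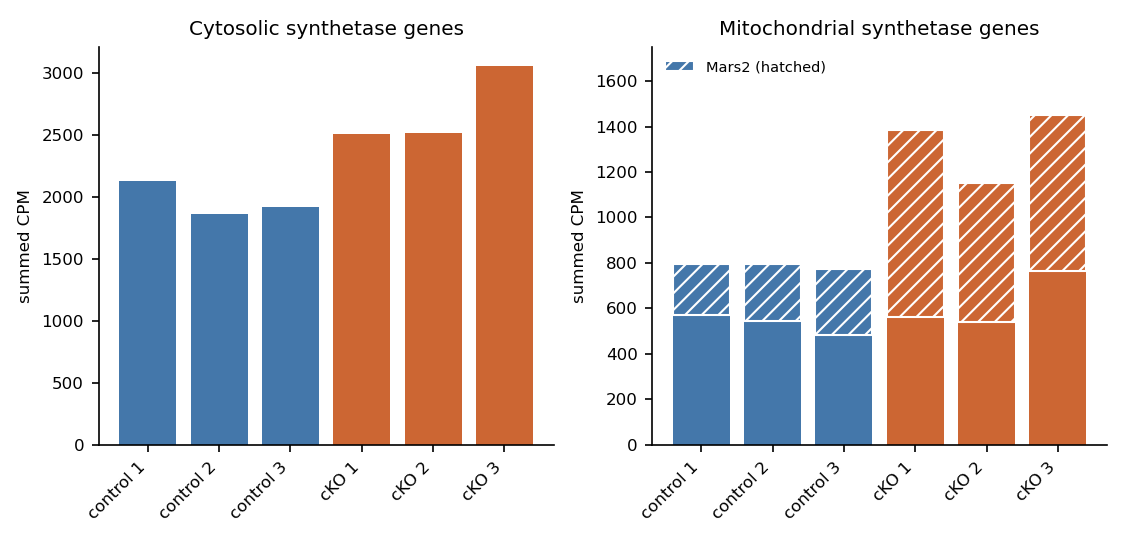
Summed CPM of the 21 cytosolic and the 17 mitochondrial synthetase genes in each library, with the Mars2 share of the mitochondrial sum hatched. Both totals are higher in the 3 Eef1g-cKO libraries, and the part without Mars2 reaches 571 CPM in the controls and 539 to 763 CPM in the Eef1g-cKO libraries.

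Levels between genes were compared per kilobase of gene length, as CPM per kb. The gene length was the deposited one, which can exceed that of the longest coding transcript. It was 18102 against 4906 bases for Eprs and 11089 against 3894 bases for Lars2. The order given here holds for the deposited length only. In the controls Dars had the highest cytosolic level, 86.4 CPM per kb, followed by Nars (48.0), Farsb (36.9) and Hars (36.0), and the lowest were Cars (1.96), Vars (1.85) and Tarsl2 (1.78). Of the mitochondrial genes, Rars2 (28.2), Mars2 (22.6) and Yars2 (22.0) had the highest levels in CPM per kb. In the Eef1g-cKO libraries Dars remained at the top with 118 CPM per kb, Nars reached 100.1 and Mars2 62.5, the highest mitochondrial level. The length of the Mars2 row is that of its long single exon.

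The change of a gene went with the base composition of its transcript. Over the 34 tested genes, Pearson's r between log2 fold change and transcript GC content was -0.48, and over 8508 genes of the whole table it was -0.24, across genes that share the same 6 libraries. The 6 cytosolic genes that rose had a median GC content of 47.1%, the 15 that did not pass 52.4%. With a GC offset in the fit, Cars, Nars, Iars, Lars, Tars and Mars2 still passed, at log2 fold changes of 2.15, 1.11, 1.15, 1.03, 0.86 and 1.20 in that order, and Farsb did not (edgeR adjusted p = 0.056). Cars, at 53.7% GC, rose most, and Mars2 at 38.8% had the lowest GC content of all 40 genes.

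Lists of genes that act on tRNA charging or maturation were also examined, and the share that rose in each was near that of all tested genes (9.09% of accessory and 8.33% of maturation genes, against 7.80%). Of 14 accessory genes (amidotransferase subunits, editing and scaffold proteins) 11 were tested, 1 rose and 0 fell by edgeR, with 1 lower at an unadjusted p under 0.05. The gene that rose was Dtd2, annotated as D-tyrosyl-tRNA deacylase 2. It went from 22.8 ± 7.45 to 68.8 ± 0.65 CPM (SD, n = 3 each, log2 fold change 1.60, SE 0.36, edgeR adjusted p = 0.0061). Prorsd1, a prolyl-tRNA synthetase-associated domain gene, was at 52, 77 and 72 reads and at 12, 67 and 0 reads (log2 fold change -1.55, edgeR adjusted p = 0.12). Of 13 tRNA maturation genes 12 were tested and 1 rose, Tsen15, a subunit of the tRNA splicing endonuclease (log2 fold change 1.18, SE 0.34, edgeR adjusted p = 0.025). None of the 12 was lower, at an unadjusted p under 0.05 either.

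Of 22 ATF4-linked genes, 21 matched a single row, 13 were tested, 2 rose and 1 fell, with a median log2 fold change of -0.06. The other 8 matched genes had too few reads for the test. Of these 8 only Chac1, named after its values were seen, had groups without overlap. It had 0 reads in each control and 4, 14 and 4 reads in the Eef1g-cKO libraries. The calls made up 23.1% of the tested genes of the list. Among all tested genes 7.80% rose and 6.01% fell, 13.8% in all. Asns, asparagine synthetase, was counted at 17, 14 and 33 reads in the controls and at 119, 321 and 60 reads in the Eef1g-cKO libraries (log2 fold change 3.03, SE 0.38, edgeR adjusted p = 4e-05). Atf4 itself rose from 259 ± 33.5 to 534 ± 100.3 CPM (log2 fold change 1.04, edgeR adjusted p = 0.0009). Slc7a5, a carrier of large neutral amino acids, fell by 1.63 on the log2 scale (SE 0.50, edgeR adjusted p = 0.035). Aldh18a1, an enzyme of proline synthesis, did not pass (log2 fold change 2.17, SE 0.74, edgeR adjusted p = 0.059). The other 9 tested genes of the list did not pass, Psat1, Phgdh, Shmt2 and Mthfd2 of serine and folate metabolism among them.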

How the data were processed

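Polyadenylated RNA of sorted spermatocytes was amplified as full-length cDNA with a single-cell kit and sequenced as paired-end reads. Per the study's methods the authors filtered reads with fastp, aligned them to GRCm38 with HISAT2 and counted reads per gene with featureCounts, and the submitters' processing notes also name mm10 and DESeq2. Strand use and the treatment of multiply mapped reads are not given in the sources used here. The authors deposited unnormalised counts of reads for Ensembl genes, in 1 column for each library.

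The test was that of edgeR 4.0.16 (R 4.3.3) on genes passing filterByExpr (minimum count 10, minimum total 15), with TMM scaling, a robust quasi-likelihood fit, Benjamini-Hochberg adjustment over all 8513 tested genes and a call at 0.05. A second limit was a log2 fold change of 1. CPM used TMM-scaled library sizes, and library totals of 763133 to 2617648 set the precision. Base composition, exons and coding length came from GENCODE M21 (GRCm38), promoter windows from RefSeq. The code was tested on simulated data. Values of 1 gene are included in counts, sums and medians but not reported here. Alternatives were other scalings and filters, DESeq2 1.42.0, limma-voom (limma 3.58.1), a non-robust fit, a GC offset, thinning to equal depth, a replicate block and each library left out. Members and lists were chosen with earlier results of these data known. Library values are given for genes that passed the test, their partners in the other compartment, the extremes of each set and genes with no more than 3 reads in any library of a group. Dars, Kars, Hars, Hars2, Aimp1, Boll and Chac1 were given so after their values were seen.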

Additional observations from a re-analysis of the deposited data

How the results depend on the processing

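Mars2, Cars, Nars and Iars kept their direction and call in all 18 alternative fits, at log2 fold changes of 1.20 to 1.58, 1.63 to 2.15, 0.87 to 1.15 and 0.85 to 1.15. Farsb was lost in 13, Lars in 3 and Tars in 2. The whole-table count of 1176 ranged from 613 to 1502 with 1 library left out, lowest without each control, and was 713 with the log2 fold change limit, under which 3 cytosolic genes remained. Cytosolic genes higher ranged from 3 to 6 and lower from 0 to 1 with 1 library left out; lower calls were 1 with library totals alone, with a minimum of 10 reads in each library and with thinned libraries, and 2 with limma-voom. The mitochondrial counts of 1 higher and 0 lower were the same throughout.

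The cytosolic median of 0.23 was 0.016 with library totals alone (all genes shifted by -0.19), 0.56 with a minimum of 10 reads in each library and 0.50 with thinned libraries, and 0.16 to 0.39 with 1 library left out. The mitochondrial median of 0.087 was -0.038 with upper-quartile scaling (all genes shifted by -0.12), -0.10 with library totals alone, 0.019 with limma-voom, -0.025 with the replicate block and 0.26 with the GC offset, and -0.0071 to 0.49 with 1 library left out. Their difference of 0.14 was 0.53 with a minimum of 10 reads in each library, 0.39 with thinned libraries, and -0.20 to 0.27 with 1 library left out, below 0 without control 2 or Eef1g-cKO 2. The medians covered 27 genes of both sets together with the minimum of 10 reads and 28 with thinned libraries, in place of 33. The replicate block gave 873 calls in all and 5 cytosolic genes higher, Farsb being lost; it changed no other call of a synthetase gene. No pairing of the libraries by replicate number was seen, with correlations of same-numbered deviations of -0.037, 0.019 and -0.049. A weaker pairing was not excluded.

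Of genes that did not pass, the sign turned with library totals alone for Aimp1 (-0.018), Iars2 (-0.095), Mars (-0.048), Vars2 (-0.17), Wars (-0.13) and Yars2 (-0.096), and with upper-quartile scaling for Iars2 (-0.014), Vars2 (-0.11), Wars (-0.070) and Yars2 (-0.061). It also turned with a minimum of 10 reads in each library for Iars2 (-0.046) and Yars2 (-0.061), with thinned libraries for Yars2 (-0.11), with the replicate block for Hars2 (-0.052), Vars2 (-0.0037) and Yars2 (-0.16), with the GC offset for Ears2 (0.17) and Farsa (0.10), with limma-voom for Hars2 (-0.59), Lars2 (-0.090), Nars2 (0.035) and Vars2 (-0.10), and with DESeq2 for Vars2 (-0.00011). With 1 library left out the ranges that crossed 0 were -1.32 to 0.22 for Sars, -0.016 to 0.16 for Wars, -0.82 to 0.72 for Hars2, -0.16 to 0.49 for Iars2, -0.21 to 0.65 for Lars2, -0.46 to 0.074 for Nars2, -0.11 to 0.21 for Vars2 and -0.25 to 0.49 for Yars2. The cause of these changes was not tested. Depth limits the 6 genes below the count filter.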
